A study of Mus musculus with 17 samples.

Results

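The enzymes of heme synthesis were read as mRNA across 6 stem and progenitor populations of mouse bone marrow. The members were every non-control probe whose gene name on the array was Alas1, Alas2, Alad, Uros, Urod, Cpox, Ppox or Fech, which gave 11 of 41174 probes and 8 of 28090 gene names. The populations were long-term HSCs (LT-HSC), short-term HSCs (ST-HSC), multipotent progenitors (MPP), common myeloid progenitors (CMP), granulocyte-monocyte progenitors (GMP) and megakaryocyte-erythroid progenitors (MEP). All came from untreated female C57Bl/6 mice aged 6 to 8 weeks, with 10 to 20 mice pooled for each replicate, and no group carried a modified allele. Marrow had been depleted of lineage-positive cells and enriched for c-kit. LT-HSC, ST-HSC and MPP (the HSC subsets) then came from one FACS sort, and CMP, GMP and MEP (the myeloid progenitors) from another. LT-HSC had 2 arrays and the other populations 3 each, 17 in all.

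Heme is iron held in a porphyrin ring, and it is the oxygen-binding group of hemoglobin as well as the cofactor of cytochromes, catalase and myeloperoxidase. Its synthesis starts in the mitochondrion, where an ALA synthase joins glycine and succinyl-CoA, continues in the cytosol, and ends in the mitochondrion with the insertion of iron. The first step has a housekeeping enzyme, ALAS1, and an erythroid one, ALAS2, encoded by separate genes, and the later enzymes are shared by both forms of the pathway.

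The probes are short stretches of these transcripts, and those of the 2 ALA synthases are shown because the finding turns on telling the 2 genes apart. On mm9, Alas1 probe 1 covers 106136467 to 106136526 of chromosome 9 and probe 2 covers 106137803 to 106137862, both on the minus strand. Each of the 2 reads through in 1 of 3 frames without a stop. The Alas2 probe covers 147004993 to 147005052 of chromosome X, plus strand. Only its bases up to the TAA that ends the open reading frame are printed, with the TAA in capitals.
Alas1 probe 1: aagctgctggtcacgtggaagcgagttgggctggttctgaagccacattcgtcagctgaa
Alas1 probe 2: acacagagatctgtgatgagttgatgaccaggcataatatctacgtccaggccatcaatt
Alas2 probe, coding part: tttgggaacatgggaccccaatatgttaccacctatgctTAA

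A RefSeq table of promoters on GRCm38.p6 held 10 start sites of 7 of the 8 members. The 250 bases before each start were searched on both strands for AGATAA or TGATAA (a form of the GATA motif), for CCNCNCCC (the KLF1 motif) and for TGCTGAG (an NF-E2 and BACH1 motif). The windows before Alas2 and Cpox are printed because these 2 genes had wide ranges over the populations and 1 annotated start each, with the matches in capitals. The first is chrX:150547167-150547416 on the plus strand and the second chr16:58669958-58670207 on the plus strand.
Alas2: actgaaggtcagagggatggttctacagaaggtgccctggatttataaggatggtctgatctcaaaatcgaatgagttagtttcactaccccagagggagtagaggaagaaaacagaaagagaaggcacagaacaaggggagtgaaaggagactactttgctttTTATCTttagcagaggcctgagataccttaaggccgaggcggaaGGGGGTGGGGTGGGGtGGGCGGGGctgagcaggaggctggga
Cpox: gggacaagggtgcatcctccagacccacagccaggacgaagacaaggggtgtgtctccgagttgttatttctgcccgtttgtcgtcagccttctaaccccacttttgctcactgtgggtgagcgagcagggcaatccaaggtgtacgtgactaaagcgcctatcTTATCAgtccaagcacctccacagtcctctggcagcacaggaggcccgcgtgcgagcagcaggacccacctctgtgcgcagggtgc

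A GATA match lay before Alas2, starting 86 bases upstream of the gene's start, before Cpox, also 86 bases upstream, and before 1 of the 2 starts of Uros, 68 bases upstream. It was thus in 3 of 10 member windows, against 16.6% of the 32851 promoters of the table. The KLF1 motif was in 6 of 10 member windows, against 45.9% of all. These were both windows of Alas1, both of Alad, that of Alas2 and 1 of Uros. The windows of Alas1 overlap, as do those of Alad, where matches in the shared stretch count in both windows. Some of the 4 matches before Alas2 overlap each other. The NF-E2 motif was in 0 of 10 member windows and in 6.21% of all promoters. These matches are letters in the sequence, and binding was not measured here.

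The intensities are log2 values after quantile normalization, and each difference is a difference of such values between populations at 1 probe. Of the non-control spots, 41.4% to 70.1% were well above background by the Agilent call. One LT-HSC array, the unnumbered one, was dim: its upper quartile of intensity was 53.1, and on no other array was it below 243.3. Scanning run 1 held replicates 1 and 2 of the myeloid progenitors, run 2 the unnumbered arrays of all populations but LT-HSC, and run 3 both LT-HSC arrays and the numbered ST-HSC and MPP arrays. A run joins arrays read on the same scanner in the same month. Within run 2 the MEP and ST-HSC arrays lay on another slide than the CMP, GMP and MPP arrays and were scanned on another day. Of the 11 member probes, 9 were well above background on all 17 arrays, Alas2 on 16, and Alad probe 2 on 1. That second Alad probe lies on the opposite strand from probe 1. No level of it is given, but it stays in the counts and medians over 11 probes. No member probe was saturated. Values are given with the numbered replicates first and the unnumbered array last, and for LT-HSC with the array labelled as a pool first.

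Of the 11 member probes 10 differed among the populations at an adjusted p under 0.05 (limma's F-test), where 40.6% of all probes did. The populations fell into 2 patterns. MEP had the highest mean at 8 probes, those of Alas2, Alad (probe 1), Uros, Urod, Cpox, Ppox and Fech (both). GMP had the highest mean at both Alas1 probes.

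**Figure D1:**
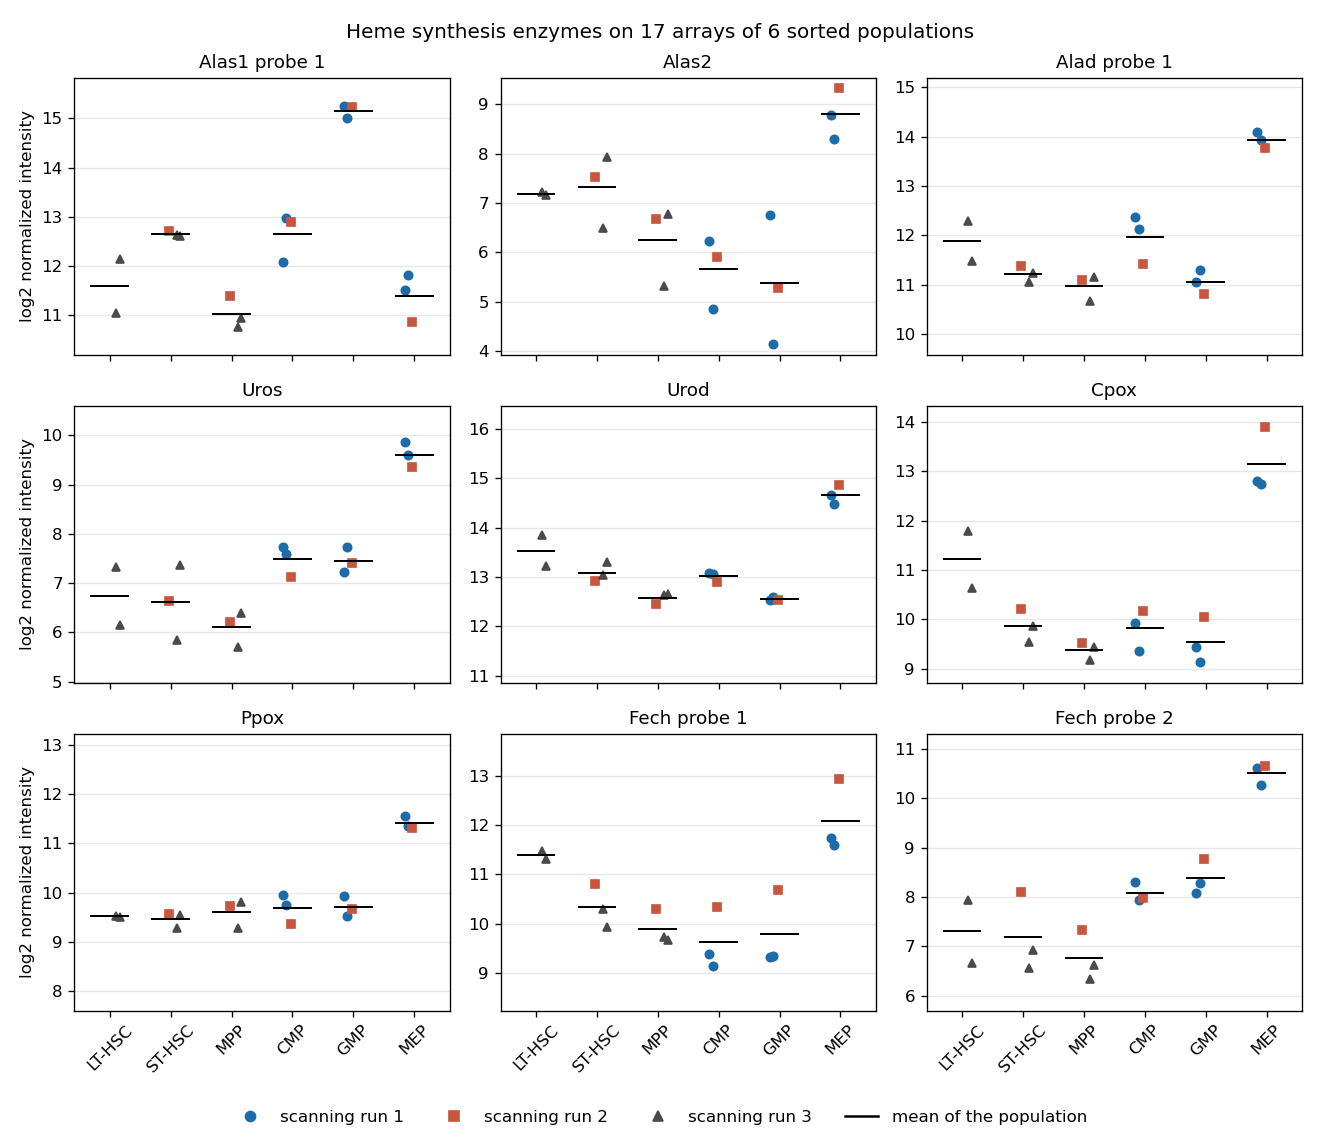
Each panel is 1 probe, with the log2 normalized intensity of each of 17 arrays on the vertical axis (every panel spans the same number of log2 units) and the 6 sorted populations on the horizontal axis. Symbols mark the scanning run and black lines the mean of a population. The GMP arrays stand above all others for Alas1, and the MEP arrays for the other 8 panels.

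Alas1 encodes the housekeeping ALA synthase, the first and usually rate-limiting enzyme. At probe 1 the 3 GMP arrays were at 15.24, 14.996 and 15.22. The CMP arrays were at 12.08, 12.98 and 12.90, and the ST-HSC arrays at 12.62, 12.62 and 12.71. The populations with the lowest means were at 10.77, 10.95 and 11.39 in MPP, 11.52, 11.81 and 10.87 in MEP, and 11.06 and 12.15 in LT-HSC. The GMP arrays did not overlap those of any other population.

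Between the means of GMP and MPP, the highest and the lowest, Alas1 probe 1 spanned 17.3-fold and probe 2 spanned 24.8-fold. GMP exceeded CMP, the next in order, by 2.50 ± 0.32 on the log2 scale at probe 1 (SE, limma adjusted p = 0.000506) and by 2.62 ± 0.41 at probe 2 (SE, limma adjusted p = 0.00197). No other neighbours in the order of either probe passed, although the ST-HSC arrays at probe 1 did not overlap those of LT-HSC, next below them (limma adjusted p = 0.139), nor at probe 2 those of MEP (limma adjusted p = 0.26). Across the 17 arrays the 2 probes, 1276 bases apart in the genome, had r = 0.98. Fewer expressing cells and less RNA per cell cannot be told apart in these sorted pools.

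MEP was below GMP at Alas1 by 3.75 ± 0.32 at probe 1, a level 13.5-fold lower (SE, limma adjusted p = 2.15e-06), and probe 2 gave 13.6-fold. The difference from CMP was smaller, at -1.25 ± 0.32 for probe 1 (SE, limma adjusted p = 0.0153) and -1.15 ± 0.41 for probe 2, which did not pass (SE, limma adjusted p = 0.0756). The call against CMP was lost without the unnumbered CMP array (-1.13), the unnumbered MEP array (-0.99) or CMP replicate 2 (-1.09). With run 1 alone the difference at probe 1 was -0.87 and did not pass (limma adjusted p = 0.165). Between the unnumbered arrays of run 2 it was -2.03. Against the other populations' mean MEP stood at -1.22 ± 0.25 at probe 1 (SE, limma adjusted p = 0.002) and at -0.83 ± 0.32 at probe 2 (SE, limma adjusted p = 0.0653), and its arrays overlapped theirs. With scanning run as a block both probe 2 differences passed, at -1.27 against the others (limma adjusted p = 0.0117) and at -1.15 against CMP (limma adjusted p = 0.0246).

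The genes most like Alas1 over the 17 arrays, among 19540 genes compared by their brightest probe, were Bzrap1 (r = 0.98), Trim45 (0.97), Aatk (0.97), Calr (0.96) and Prtn3 (0.96). Prtn3 encodes the granule protease proteinase 3, and Calr the chaperone calreticulin. The 17 arrays behind these correlations come from 6 populations only. The 5 markers of granulocyte-monocyte progenitors, Mpo, Elane, Ctsg, Prtn3 and Csf1r, also had their highest sum in GMP. Their summed level (log2) was 19.2 to 19.8 in GMP, 18.0 to 19.1 in CMP, 18.3 to 19.0 in ST-HSC, 16.1 to 17.5 in MPP, 16.0 to 17.9 in LT-HSC and 13.9 to 16.7 in MEP, and all 5 were well above background on every array. Of these 5 only Elane passed in GMP minus CMP (limma adjusted p = 0.0463). The mast cell and basophil markers Cpa3, Mcpt8, Fcer1a and Ms4a2 all passed there, higher in GMP by 2.39, 4.70, 4.13 and 3.00, and their summed level was 13.6 to 14.2 in GMP, 11.9 to 12.8 in ST-HSC and at most 10.9 elsewhere. The part of either list in the Alas1 result was not tested.

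Alas2 encodes the erythroid ALA synthase. The 3 MEP arrays were at 8.79, 8.29 and 9.32. The GMP arrays were at 6.75, 4.13 and 5.27, the second of these not well above background, and the CMP arrays at 6.23, 4.85 and 5.92. LT-HSC stood at 7.22 and 7.16, ST-HSC at 6.50, 7.93 and 7.52, and MPP at 5.31, 6.77 and 6.67. Every MEP array was above every other array. Of the rest, both LT-HSC arrays lay above all CMP, GMP and MPP arrays, and the ST-HSC arrays above all CMP arrays.

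The Alas2 difference was 3.42 ± 0.63 between MEP and GMP, or 10.7-fold (SE, limma adjusted p = 0.00139), and 3.14 ± 0.63 between MEP and CMP, or 8.80-fold (SE, limma adjusted p = 0.00301). With 1 array left out the first ran from 2.79 to 4.10 and the second from 2.73 to 3.42, and neither call was lost. With run 1 alone, which has 2 arrays per population, the differences were 3.101 and 3.002 and neither passed (limma adjusted p = 0.118 and 0.123). Between the unnumbered arrays of run 2 they were 4.06 and 3.41. ST-HSC was next in the order after MEP, 1.48 ± 0.63 lower, and this difference did not pass although the arrays did not overlap (SE, limma adjusted p = 0.0945), nor did any later pair of neighbours. GMP was below ST-HSC by 1.94 ± 0.63 (-1.94, SE, limma adjusted p = 0.0457) with overlapping arrays, a call that was lost in 12 of the 17 fits with 1 array left out, where the value ran from -2.62 to -1.31 (the latter without GMP replicate 2). The genes most like Alas2 were Scrib (r = 0.92), Snapc4 (0.90), Hba-a2 (0.90), Hba-a1 (0.90) and Slc4a1 (0.89), of which Hba-a1 and Hba-a2 encode alpha globin and Slc4a1 the red-cell anion exchanger.

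The cytosolic steps follow. Alad encodes ALA dehydratase, which joins 2 molecules of ALA into porphobilinogen. Its probe 1 spans 146 bases of chromosome 4 of mm9, minus strand, from 62171795 to 62171940. It read 14.10, 13.94 and 13.78 in MEP, 12.37, 12.12 and 11.42 in CMP and 11.05, 11.30 and 10.81 in GMP. LT-HSC stood at 12.29 and 11.48, ST-HSC at 11.04, 11.23 and 11.39 and MPP at 10.67, 11.16 and 11.09. MEP did not overlap any population, and exceeded CMP, the next in order, by 1.97 ± 0.27 (SE, limma adjusted p = 0.000139). The CMP arrays were all above the GMP arrays, but that difference, -0.92 ± 0.27 for GMP minus CMP, did not pass (SE, limma adjusted p = 0.0762). It passed with scanning run as a block (limma adjusted p = 0.0236) and with the replicate block within each sort (limma adjusted p = 0.0335).

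Uros encodes uroporphyrinogen III synthase, which closes the tetrapyrrole ring, and its probe lies on chromosome 7 of mm9 at 140889352 to 140889411, minus strand. The MEP arrays were at 9.86, 9.60 and 9.35. CMP stood at 7.74, 7.59 and 7.12 and GMP at 7.23, 7.73 and 7.41. The HSC subsets ranged from 5.71 in MPP to 7.38 in ST-HSC. MEP exceeded CMP by 2.12 ± 0.38, or 4.35-fold (SE, limma adjusted p = 0.00129), and no lower neighbours in the order passed. The genes most like Uros were Psmc2 (r = 0.98), Orc5l (0.97), Fastkd2 (0.97), Mthfd1 (0.97) and Pwp2 (0.97).

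Urod encodes uroporphyrinogen decarboxylase, the last cytosolic enzyme, with a probe on chromosome 4 of mm9 at 116662850 to 116662909, minus strand. MEP was at 14.67, 14.47 and 14.86, and GMP at 12.53, 12.59 and 12.53. LT-HSC came next after MEP at 13.86 and 13.22, and CMP, ST-HSC and MPP ranged from 12.45 to 13.31. MEP exceeded LT-HSC by 1.13 ± 0.20, or 2.19-fold (SE, limma adjusted p = 0.00071). Together with Ppox, Urod had the narrowest range of the measured probes, 4.34-fold between MEP and GMP.

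Back in the mitochondrion, Cpox encodes coproporphyrinogen oxidase, with a probe on chromosome 16 of mm9 at 58680403 to 58680465, plus strand. MEP was at 12.82, 12.75 and 13.90, and GMP at 9.43, 9.14 and 10.05. CMP stood at 9.93, 9.37 and 10.18, ST-HSC at 9.54, 9.87 and 10.21, and MPP at 9.18, 9.45 and 9.52. The LT-HSC arrays, at 11.79 and 10.65, lay above all arrays but those of MEP. MEP exceeded LT-HSC by 1.94 ± 0.42 (SE, limma adjusted p = 0.00336) and GMP by 3.61 ± 0.38, or 12.3-fold (SE, limma adjusted p = 1.19e-05), which made Cpox the shared enzyme with the largest difference between MEP and GMP. The genes most like Cpox were Rfesd (r = 0.99), Pitrm1 (0.98), Ssx2ip (0.98), Agtr1a (0.98) and 1500005A01Rik (0.98).

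Ppox encodes protoporphyrinogen oxidase, which makes protoporphyrin, and its probe spans 178 bases of chromosome 1 of mm9, from 173207452 to 173207629, minus strand. MEP was at 11.54, 11.35 and 11.32, and all 14 other arrays lay between 9.27 and 9.95. MEP exceeded GMP by 1.70 ± 0.19, or 3.25-fold (SE, limma adjusted p = 1.9e-05). Below MEP no neighbours in the order passed, and the means of the other 5 populations spanned 9.46 to 9.70.

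Fech encodes ferrochelatase, which inserts the iron, and it had 2 probes on the same transcript. At probe 1 MEP was at 11.74, 11.60 and 12.93, GMP at 9.32, 9.35 and 10.68, and CMP at 9.39, 9.15 and 10.34. LT-HSC was at 11.47 and 11.31, ST-HSC at 10.29, 9.93 and 10.81, and MPP at 9.73, 9.67 and 10.31. In each of the myeloid progenitors, ST-HSC and MPP, the highest reading was the array of run 2. Within run 1 MEP exceeded GMP by 2.33 and within run 2 by 2.25. The MEP arrays were above all others, but MEP and LT-HSC, next in the order, differed by 0.70 ± 0.50, which did not pass (SE, limma adjusted p = 0.331).

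Fech probe 2 gave 10.62, 10.27 and 10.65 in MEP, 8.07, 8.29 and 8.76 in GMP and 8.29, 7.95 and 7.98 in CMP. LT-HSC was at 7.94 and 6.66, ST-HSC at 6.56, 6.93 and 8.10, and MPP at 6.34, 6.61 and 7.33. Here GMP came next after MEP, 2.13 ± 0.41 lower (SE, limma adjusted p = 0.00189). Both probes placed MEP above GMP (2.30 ± 0.45 at probe 1, SE, limma adjusted p = 0.00217) and above CMP (2.46 ± 0.45 and 2.44 ± 0.41, SE, limma adjusted p = 0.00154 and 0.000793).

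The 2 Fech probes disagreed about the HSC subsets, a point chosen after the values were seen. Within each array, probe 1 minus probe 2 was 2.71 to 4.64 on the 8 arrays of HSC subsets (mean 3.38 ± 0.61, SD) and 1.06 to 2.35 on the 9 arrays of myeloid progenitors (mean 1.51 ± 0.52, SD). The ranges did not overlap, and the means differed by 1.87, which is given without a test. Run 1 held only myeloid progenitors, at 1.06 to 1.33, and run 3 only HSC subsets, at 3.00 to 4.64. On the arrays of run 2, the only run with both sorts, it was 2.71 and 2.98 in the HSC subsets (mean 2.84) and 1.92 to 2.35 in the myeloid progenitors (mean 2.18). The part of the scanning run was not tested further. Sort and class of population cannot be told apart here. The probes lie 1064 bases apart on the genome. A ratio within an array shows unequal change of the 2 probes and does not tell which of them follows the amount of Fech mRNA. The 2 Alas1 probes differed by 1.89 to 2.89 within arrays of the HSC subsets and by 1.84 to 2.20 within those of the myeloid progenitors.

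**Figure D2:**
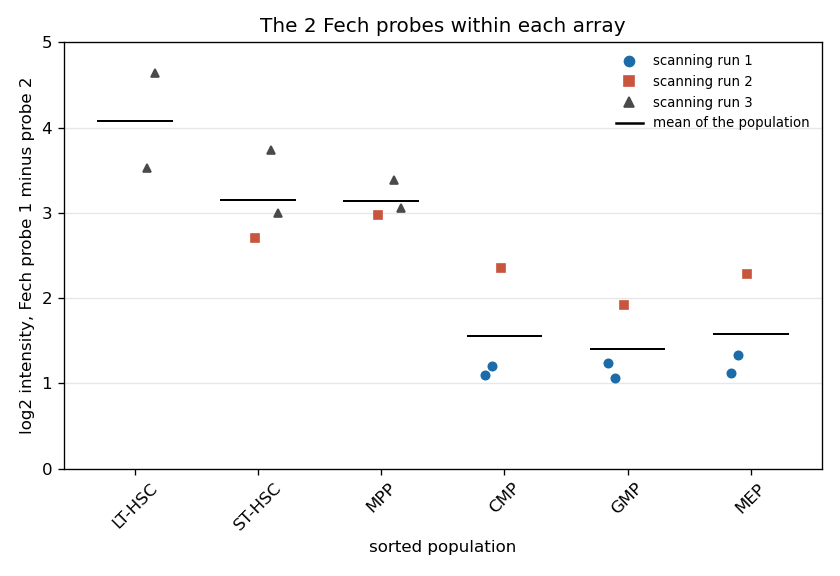
The vertical axis is the log2 intensity of Fech probe 1 minus that of probe 2 within each array, and the horizontal axis the sorted population. Symbols mark the scanning run and black lines the mean of a population. The 8 arrays of LT-HSC, ST-HSC and MPP lie at 2.71 or above and the 9 arrays of CMP, GMP and MEP at 2.35 or below.

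Set against the mean of all 5 others, MEP was higher at 8 of 11 member probes and lower at 1 (Alas1 probe 1), where 17.9% of all probes were higher and 13.4% lower. The median difference of the member probes was 1.88, against 0.04 over all probes. Between MEP and GMP, 8 member probes were higher in MEP and 2 lower, with 7.81% and 9.56% of all probes, and a median of 2.13 against 0.07. Between MEP and CMP, 8 were higher and 1 lower, with 7.24% and 9.43% of all probes, and a median of 1.97 against 0.10. The 8 higher probes were in each case those of Alas2, Alad, Uros, Urod, Cpox, Ppox and Fech, and at each of them the MEP arrays did not overlap the compared arrays. These probes had already been called, and the share of all probes without overlap was not counted. Within run 1 and within run 2 taken alone, each of these 8 probes was higher in MEP than in GMP and CMP, and both Alas1 probes lower. In run 2 this compares 1 array per population, and the MEP array differs from the GMP and CMP arrays in slide and scan day.

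The branch from CMP to GMP moved 2 member probes, both of Alas1 and both higher in GMP, where 1.84% of all probes were higher and 2.93% lower, and the median member difference was 0.01. The other 8 measured probes differed by between -0.92 and 0.30 and did not pass.

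**Figure D3:**
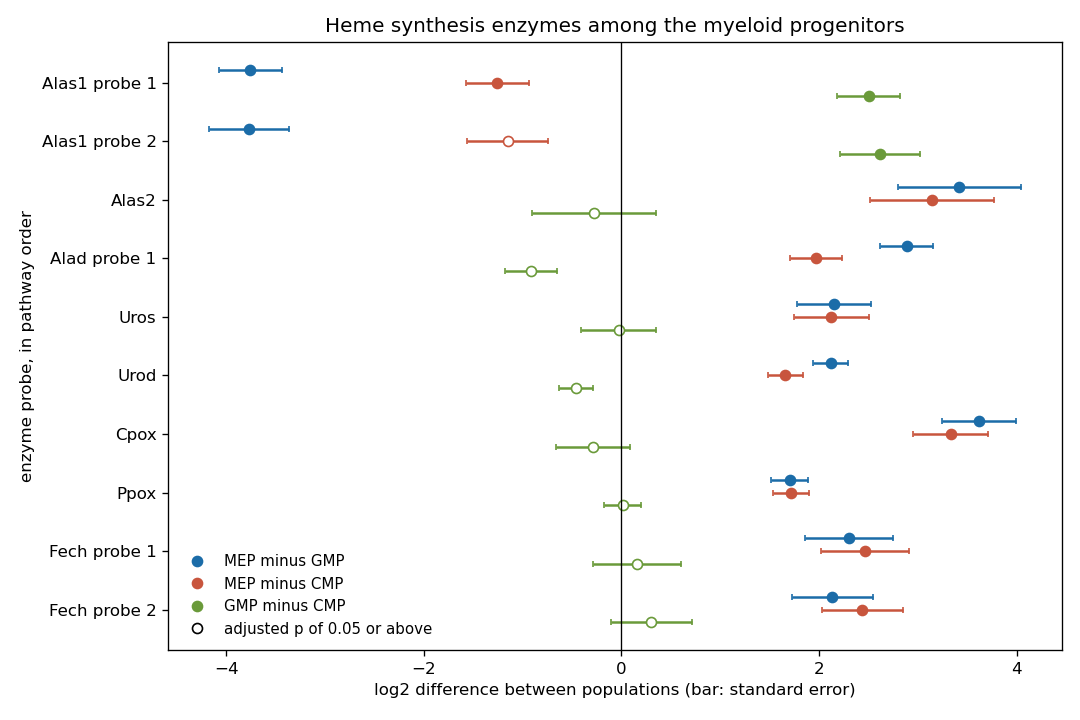
The horizontal axis is the log2 difference between 2 myeloid progenitor populations at each enzyme probe but Alad probe 2, with its standard error as a bar, and the vertical axis lists the probes in pathway order. Filled points had a limma adjusted p under 0.05. MEP exceeds GMP and CMP by 1.66 to 3.61 at every probe shown but those of Alas1, where GMP exceeds CMP by 2.50 and 2.62.

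From MPP to CMP, 4 member probes were higher in CMP and 0 lower, where 6.75% of all probes were higher and 5.39% lower. They were Alas1 probe 1 (1.62 ± 0.32) and probe 2 (2.02 ± 0.41), Alad probe 1 (1.0 ± 0.27) and Uros (1.38 ± 0.38), each with its SE and with limma adjusted p-values of 0.00709, 0.00784, 0.0284 and 0.0325. Fech probe 2 was 1.31 ± 0.41 higher without passing (SE, limma adjusted p = 0.0526). The 2 populations came from separate sorts and share only run 2. With scanning run as a term in the fit 0 of the 11 probes passed (3 at an unadjusted p under 0.05), at 1.34, 1.40, 0.54 and 1.09 in the same order. Without MPP replicate 2, MPP replicate 3, CMP replicate 1 or CMP replicate 2 only the 2 Alas1 probes passed.

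Among the HSC subsets Alas1, Urod and Cpox passed in 1 of the 3 comparisons each. From ST-HSC to MPP, 1 member probe was lower and 0 higher, where 0.874% of all probes were lower and 1.15% higher. It was Alas1 probe 1, at -1.61 ± 0.32 (SE, limma adjusted p = 0.0176), with probe 2 at -1.52 ± 0.41 (SE, limma adjusted p = 0.0963). The call was lost without ST-HSC replicate 2, ST-HSC replicate 3, the unnumbered ST-HSC array, MPP replicate 2 or MPP replicate 3, with values of -1.63, -1.63, -1.58, -1.48 and -1.57. With the replicate block within each sort probe 1 was at -1.61 and did not pass (limma adjusted p = 0.0813).

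From LT-HSC to ST-HSC, 0 of 11 member probes passed in limma and 5 had an unadjusted p under 0.05, where 0.852% of all probes were higher and 2.49% lower. These comparisons rest on 2 LT-HSC arrays, 1 of them dim. The largest differences were -1.35 ± 0.42 for Cpox (SE, limma adjusted p = 0.104), 1.22 ± 0.46 for Alas1 probe 2 (SE, limma adjusted p = 0.177), 1.05 ± 0.36 for Alas1 probe 1 (SE, limma adjusted p = 0.139) and -1.04 ± 0.50 for Fech probe 1 (SE, limma adjusted p = 0.317). With scanning run as a term, Cpox at -1.47 and Fech probe 1 at -1.26 passed (limma adjusted p = 0.0186 and 0.000731). With 1 array left out the Cpox difference ran from -1.92 to -0.78 and that of Alas1 from 0.50 to 1.59 at probe 1 and from 0.75 to 1.69 at probe 2.

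From LT-HSC to MPP, 2 of 11 member probes were lower and 0 higher, where 4.32% of all probes were lower and 2.93% higher. They were Urod at -0.96 ± 0.20 (SE, limma adjusted p = 0.0119) and Cpox at -1.84 ± 0.42 (SE, limma adjusted p = 0.0216), with no overlap of arrays. With the replicate block within each sort Urod was -0.79 and did not pass (limma adjusted p = 0.057). Without the LT-HSC array labelled as a pool neither passed (-0.64 and -1.26), and without MPP replicate 2 or MPP replicate 3 Cpox did not pass (-1.73 and -1.87). The summed level (log2) of the erythroid markers Hba-a1, Hbb-b1, Slc4a1, Epb42 and Ahsp was 14.3 to 14.8 in LT-HSC, 13.3 to 14.5 in ST-HSC and 12.8 to 14.0 in MPP, with 4 to 5 of 5 well above background on an LT-HSC array. That of the mature neutrophil markers Ltf, Ngp, S100a8, S100a9 and Camp was 18.4 to 19.1 in LT-HSC, 18.0 to 19.1 in ST-HSC and 16.2 to 18.1 in MPP. The part of these markers in the LT-HSC levels was not tested.

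The same 5 erythroid markers were all higher in MEP than the mean of the others. Their summed level (log2) was 15.3 to 16.4 in MEP, 11.2 to 12.7 in CMP and 9.03 to 10.9 in GMP, and all 5 were well above background on every MEP array. Of 5 megakaryocyte markers, Pf4, Itga2b, Gp1bb, Vwf and Gp9, 0 were higher and 4 lower in MEP, so of the 2 lineages in its name only the erythroid one had its markers raised, against the mean of the others. The part of the erythroid markers in the enzyme result was not tested.

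The other genes of the pathway were read by their brightest probe, MEP against the mean of the others. Of the 28090 gene names 30.8% differed, 4436 higher and 4225 lower in MEP, and the median difference was 0.004. Of 14 genes of iron uptake and iron-sulfur supply, 8 were higher in MEP, 0 lower and 6 did not pass, with a median of 1.14. The largest differences were those of Steap3, a ferrireductase of endosomes (3.33 ± 0.31, SE), Slc11a2, the iron transporter DMT1 (2.10 ± 0.17, SE), and Tfr2, the second transferrin receptor (2.07 ± 0.14, SE). Outside MEP, Steap3 passed the background call on 9 of 14 arrays, with no LT-HSC array among the 9, so the size of its difference is less certain, and its other probe stood at 0.61. The 2 other probes of Slc11a2 stood at 0.66 and 3.61. Tfrc, the main transferrin receptor, was 1.89 ± 0.13 higher (SE, limma adjusted p = 1.72e-07).

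Of 8 genes of substrate and porphyrin transport, 5 were higher, 1 lower and 2 did not pass, with a median of 1.08. Abcb6, a porphyrin transporter, was 2.64 ± 0.17 higher (SE), Slc25a38, which brings glycine into the mitochondrion, 2.59 ± 0.19 (SE), and Abcb10, a transporter of the inner mitochondrial membrane, 2.08 ± 0.20 (SE). The other Abcb10 probe stood at 0.93. The 1 lower gene was Tspo, the translocator protein of the outer membrane, at -0.49 ± 0.13 (SE, limma adjusted p = 0.0105). This call was lost without the unnumbered MEP array (-0.41) and with 75th-percentile scaling (-0.19).

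Of 14 genes of heme export, binding and breakdown, 6 were higher, 3 lower and 5 did not pass, with a median of 0.40. Hebp1, a heme-binding protein, was 3.52 ± 0.27 higher (SE), Blvrb, biliverdin reductase B, 3.47 ± 0.25 (SE), and Slc40a1, the iron exporter ferroportin, 2.44 ± 0.32 (SE). Both heme oxygenases, which open the heme ring, were lower in MEP, Hmox1 by 1.70 ± 0.26 (-1.70, SE, limma adjusted p = 0.000189) and Hmox2 by 0.84 ± 0.10 (-0.84, SE, limma adjusted p = 1.69e-05). The third lower gene, Hebp2, passed the background call on 0 of 3 MEP arrays, and no fold is given for it.

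Of 12 regulators of the erythroid pathway, 8 were higher, 3 lower and 1 did not pass, with a median of 1.12. Klf1, an erythroid zinc-finger factor, was 4.92 ± 0.42 higher (SE), Epor, the erythropoietin receptor, 4.37 ± 0.24 (SE), and Gata1, the erythroid GATA factor, 4.01 ± 0.31 (SE). Gata2, the GATA factor of earlier progenitors, stood at -1.33 ± 0.12 and Nfe2 at -0.91 ± 0.19 (SE, limma adjusted p = 1.99e-06 and 0.00263), the latter not called with 75th-percentile scaling (-0.58). The third lower gene, Ppargc1a, passed the background call on 0 of 3 MEP arrays. Eif2ak1, which encodes the heme-regulated inhibitor kinase, was 1.70 ± 0.21 higher (SE, limma adjusted p = 3.32e-05). Its 3 other probes ran from 0.74 to 2.22.

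Klf1 was at 12.86, 12.83 and 13.04 in MEP, 10.14, 9.80 and 9.46 in CMP and 6.26, 6.55 and 7.17 in GMP. Among the HSC subsets it was at 10.83 and 9.65 in LT-HSC, 7.08, 8.16 and 8.45 in ST-HSC and 4.23, 5.24 and 6.69 in MPP. Gata1 was at 12.30, 12.23 and 11.72 in MEP, and the CMP arrays, at 10.44, 10.50 and 9.44, lay above those of the other 4 populations, GMP among them at 7.98, 8.11 and 8.08.

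**Figure D4:**
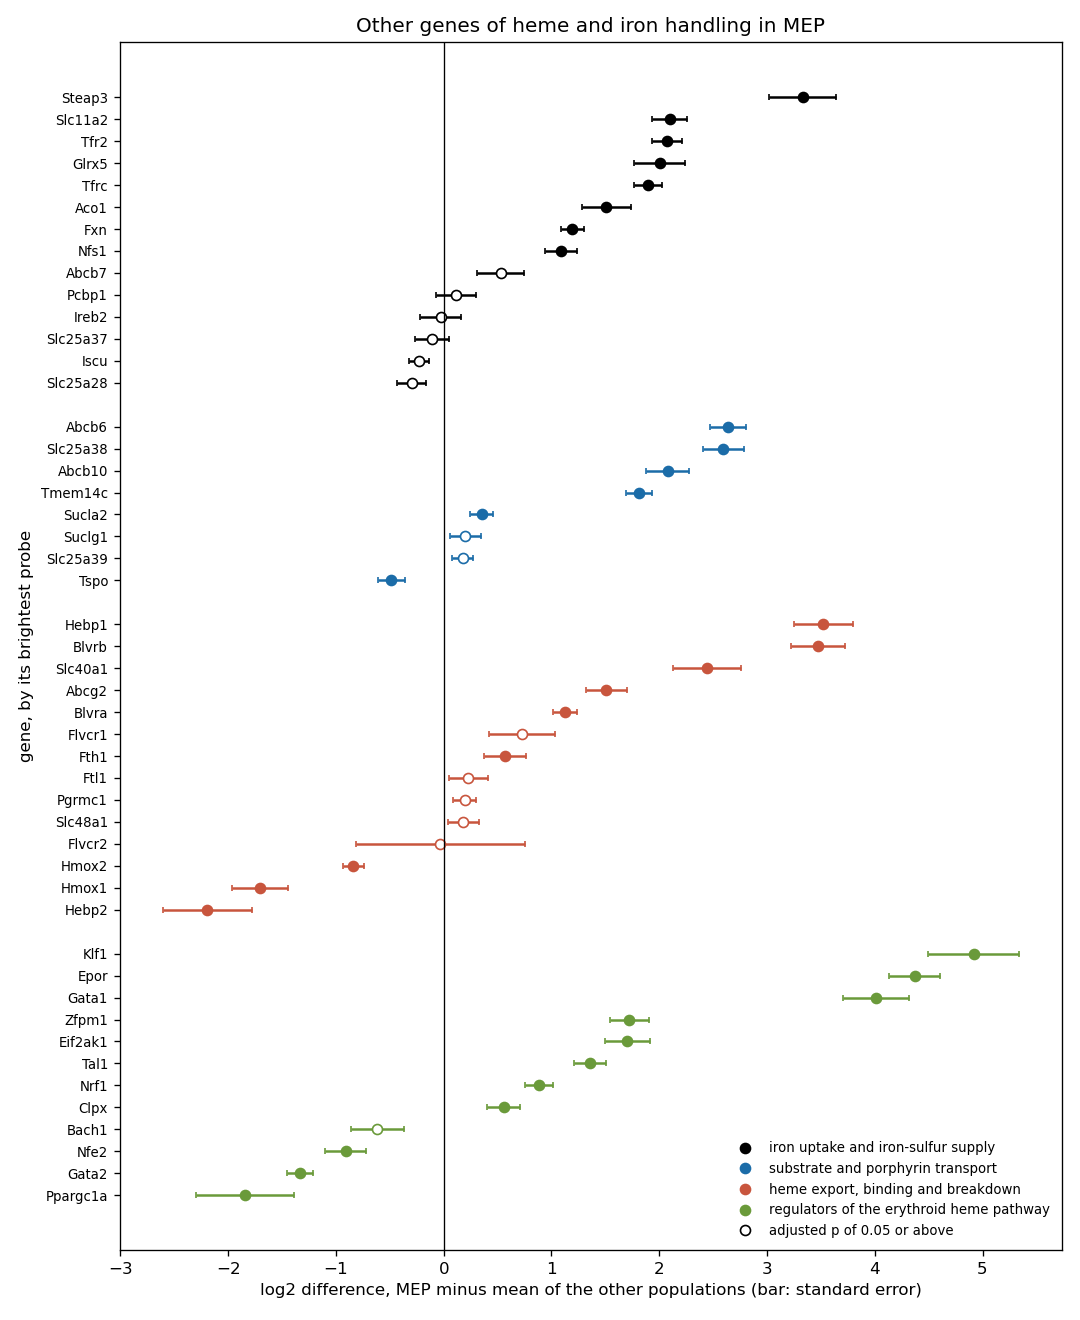
The horizontal axis is the log2 difference between MEP and the mean of the others, with its standard error as a bar, for each gene of heme and iron handling by its brightest probe. Genes are grouped by list and ordered by value, and filled points had a limma adjusted p under 0.05. Klf1, at 4.92, lies farthest to the right, and both heme oxygenases lie left of 0.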

How the data were processed

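RNA of FACS-sorted cells had been labelled with Cy3 and hybridised to Agilent whole mouse genome arrays. The authors deposited scanner output per array, with spot intensity background-corrected by Feature Extraction and not normalized between arrays, and a table of log2 values, quantile normalized by the authors with limma per the labels and methods. Each column ranked probes as the median spot signal of its array does (Spearman correlation 1), and it was used as an alternative only. Feature Extraction was version 9.5.3.1 on the arrays of run 1 and 10.2.1.3 on those of runs 2 and 3. The part of the version in the differences between populations was not tested.

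The log2 intensities of all spots were quantile normalized over 17 arrays in limma 3.58.1 (R 4.3.3). Then 1639 control spots and spots with an outlier mark were left out (161 probe values missing) and spots of a probe averaged. A model with 1 mean per population was fitted over 41174 probes by lmFit and eBayes, with Benjamini-Hochberg adjustment over all probes at 0.05. Per the methods each replicate is a pool of mice, so p-values measure the spread between these pools, and the number of arrays limits the precision. The fit was tested on simulated data.

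The members, gene lists and tests were chosen with earlier results of these data known. Named were all member probes, the 3 largest called differences each way of each list in MEP among genes well above background on all MEP or all other arrays, and Gata1, Klf1, Tfrc and Eif2ak1. Of the listed genes 2 are not reported here. Hebp2, Ppargc1a and the Fech probe difference were named after their values were seen. The 5 genes most alike were named for Alas1, Alas2 and the 2 further members whose brightest probe had the widest range of means (Cpox and Uros). Tfr2, Epb42, Ahsp and Elane were found under older names and Slc48a1 by accession. Marker lists of stem, B, T, and mast cells were also read. The stem cell markers (4 of 4) and mast cell markers (4 of 4) were lower in MEP, 1 of 4 T cell markers was lower, 4 of 5 granulocyte-monocyte markers were lower, and 0 of 4 B cell markers and 0 of 5 neutrophil markers differed in limma (0 and 0 at an unadjusted p under 0.05).

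Alternatives were the 75th percentile in place of quantiles, normexp with an offset of 50, the authors' table, leaving out dim probes (24658 kept), a block for scanning run or for replicate number, slide as random, both LT-HSC arrays or each array left out, run 1 alone, and the mean of all probes of a gene. Probe positions are on mm9, the build named in the file headers of runs 2 and 3, where the headers of run 1 name mm7. Promoters are on GRCm38.p6.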

Additional observations from a re-analysis of the deposited data

How the results depend on the processing

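The counts of member probes for MEP against the others, GMP and CMP stayed within 1.5 times of 9, 10 and 9 under each alternative, but with the mean of all probes Alad did not pass in MEP minus GMP (1.06, limma adjusted p = 0.0687) or MEP minus CMP (1.06, limma adjusted p = 0.071), since its dim probe is averaged in. The lists of other pathway genes also kept their counts within 1.5 times, and no difference called in the report reversed its direction. For CMP minus MPP, 4 probes became 0 with scanning run as a block and 2 with slide as a random block, and 2 genes with the mean of all probes. For MPP minus ST-HSC, 1 became 2 with the authors' table, with run as a block and with slide as a random block. For ST-HSC minus LT-HSC, 0 became 2 with run as a block. For MPP minus LT-HSC, 2 became 4 with run as a block and 0 with slide as a random block. GMP minus CMP gave 1 gene, Alas1, with the mean of all probes. With single arrays left out, CMP minus MPP ranged from 2 to 5, MPP minus ST-HSC from 0 to 2, MPP minus LT-HSC from 0 to 2, and the Fech probe difference, whose alternatives were chosen after seeing the data, from 1.69 to 1.97. That difference was 1.63 at the 75th percentile, 1.32 with normexp, 1.63 with the authors' table and 1.63 without both LT-HSC arrays. Against CMP, Alas1 probe 1 in MEP was -0.95 at the 75th percentile and did not pass (limma adjusted p = 0.067). At that scaling the median of all probes rose from 0.10 to 0.49 in MEP minus CMP and from 0.07 to 0.43 in MEP minus GMP. Alad in GMP minus CMP also passed with slide as a random block, dim probes left out, run 1 alone or both LT-HSC arrays left out (limma adjusted p of 0.0272, 0.0492, 0.0383 and 0.0455), and without either LT-HSC array or the unnumbered CMP array. Alas1 probe 2 also passed in MEP against the others and in MEP minus CMP with slide as a random block, normexp, the authors' table or dim probes left out, and in MEP minus CMP with the replicate block within each sort (limma adjusted p = 0.036). The cause of these shifts was not tested.

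Arrays with the same replicate number deviated together within a sort (r of 0.13 to 0.52) but not between sorts (-0.06 to 0.01), and with 2 numbered pairs per comparison the pairing is a hint from the data only. Within a sort these arrays also shared a slide, and between sorts they lay in different runs. Arrays of different numbers were not compared, so pairing cannot be told apart from slide or run here. With the replicate block, in which unnumbered arrays shared a level, 9, 10, 9, 2, 5, 1 and 0 member probes passed for MEP against the others, MEP minus GMP, MEP minus CMP, GMP minus CMP, CMP minus MPP, MPP minus ST-HSC and ST-HSC minus LT-HSC, and Fech probe 2 passed for CMP minus MPP (1.21, limma adjusted p = 0.0397). MPP minus LT-HSC gave 2. With the replicate block within each sort, added after seeing the data, MEP minus GMP gave 10, MEP minus CMP 10, GMP minus CMP 3 and MPP minus ST-HSC 0. Signal limits Alas2 in GMP, where 1 of 3 arrays was not well above background, and Alad probe 2 throughout.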
